A study of Mus musculus with 2 samples.

Results

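The NR4A family of nuclear receptors was followed through the immune cells of the mouse aorta. Its members were taken by gene symbol, and the 3 symbols *Nr4a1*, *Nr4a2* and *Nr4a3* each matched 1 of the 55386 features counted in both libraries. The study compared leukocytes of undisturbed aortas with those of aortas inflamed by angiotensin II (AngII), a peptide hormone that raises blood pressure. CD45-positive cells were sorted from whole aortas and labelled as adventitia, the outer coat of the vessel, and their RNA was counted cell by cell with 10x 3′ chemistry version 3.1. Both libraries came from RankCreRosa26eYFP mice of about 16 weeks, in which the *Rank* gene drives Cre and Cre switches on a yellow fluorescent reporter (Yfp) for good in a cell and its descendants. The AngII library pooled 2 mice that received 1.8 µg AngII per kg per min for 10 days, and the steady-state library pooled 3 untreated mice. With 1 library per condition and pooled animals, the spread between animals could not be measured and no test between conditions was possible. All intervals are exact 95% intervals and cover counting error only, and Yfp RNA shows *Rank* activity in a cell or its ancestors at any time, not at the time of sampling.

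NR4A receptors are transcription factors without a known classical ligand, so their activity is set mainly by how much of them a cell makes. They belong to the immediate early genes, which are switched on within minutes by cyclic AMP, calcium, antigen receptors, growth factors or inflammatory signals. *Nr4a1* is known as a factor that nonclassical, patrolling monocytes need to develop and as a mark of recent antigen receptor signalling in lymphocytes, *Nr4a2* as a factor of dopamine neurons that also restrains inflammatory genes in myeloid cells, and *Nr4a3* as a factor linked to the migration of dendritic cells.

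On GRCm38, *Nr4a1* (ENSMUSG00000023034.7) lies on the plus strand of chromosome 15 from 101254269 to 101274795. *Nr4a2* (ENSMUSG00000026826.13) lies on the minus strand of chromosome 2 from 57106830 to 57124003, and *Nr4a3* (ENSMUSG00000028341.9) on the plus strand of chromosome 4 from 48045153 to 48086447. All are protein-coding, their coding transcripts have 3 to 8, 7 to 8 and 8 exons, and no other annotated gene overlaps any of them on either strand. The symbols therefore stand for separate places in the genome.

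The AngII library held 4419 cell barcodes with 20481854 UMIs, the molecular tags that count each captured RNA molecule once. Of these barcodes, 4198 passed a filter of 300 to 6500 detected genes and at most 5% mitochondrial counts, with a median of 1092 UMIs per cell. The steady-state library held 346 barcodes with 4009678 UMIs, of which 306 cells passed with a median of 9105 UMIs. The AngII cells were thus far shallower, and 0 barcodes were shared between the libraries. Levels are given as CPM, the UMIs of a gene per 1000000 UMIs summed over the cells of a class. How many cells show a UMI rises with their depth, so shares are followed by those after thinning, in which 1000 UMIs were drawn at random from every cell. Thinning left out 1910 of the AngII cells and 3 of the steady-state cells, which held fewer UMIs than that.

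Cells were placed by gates, rules that assign a cell from its marker genes. A cell entered a class when at least 2 markers of that class were found and its marker score led the next class by at least 0.05. The macrophage classes described are resident (*Lyve1*, *Folr2*, *Cbr2* and others), type-2 (*Ear2*, *Retnla* and others) and other macrophages, placed by general macrophage markers. Nonclassical monocytes were gated by *Ace*, *Treml4*, *Cd300e*, *Eno3*, *Adgre4* and *Gngt2* and classical monocytes by *Ly6c2*, *Plac8*, *Chil3*, *Vcan*, *F10* and *Ms4a4c*. On AngII, 275 cells fell between classes (mixed) and 219 met no gate, against 10 and 1 at steady state. Fibroblast markers summed to 4.94 CPM on AngII and 9.05 CPM at steady state, endothelial markers to 52.7 CPM and 25.2 CPM, and smooth muscle markers to 9.11 CPM and 117 CPM, with 1 gated smooth muscle cell in all.

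A gate on a score marks a range rather than a type, and cells near its border were counted. Within 0.1 of the next class lay 7 of the 37 nonclassical and 48 of the 330 classical monocytes on AngII, and 27 of the 852 resident macrophages. At steady state this held for 0 of the 16 nonclassical monocytes, 0 of the 8 classical monocytes and 0 of the 117 resident macrophages. The median score of AngII nonclassical monocytes was 0.799 for their own markers and 0.449 for the best other class, against 1.16 and 0.345 at steady state. Classical monocytes had medians of 0.671 and 0.357 on AngII and 0.832 and 0.332 at steady state. Resident macrophages had a median own score of 0.426 on AngII and 0.891 at steady state, with 4 and 9 of 11 markers found, and 0.238 and 0.190 for the best other class, so the AngII class was the less sharply marked.

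In the whole AngII library, *Nr4a1* was counted 4282 times in 1242 cells (238 CPM, 231 to 245), *Nr4a2* 2225 times in 804 cells (124 CPM, 118 to 129) and *Nr4a3* 592 times in 289 cells (32.9 CPM, 30.3 to 35.6). At steady state, *Nr4a1* had 1320 UMIs in 161 cells (362 CPM, 343 to 382), *Nr4a2* 284 in 55 cells (77.9 CPM, 69.1 to 87.5) and *Nr4a3* 72 in 27 cells (19.7 CPM, 15.4 to 24.9). *Nr4a1* was the most abundant of the 3 in both libraries. The ratio of AngII to steady state over all cells was 0.657 (0.618 to 0.699) for *Nr4a1*, 1.59 (1.40 to 1.80) for *Nr4a2* and 1.67 (1.30 to 2.16) for *Nr4a3*. These whole-library values mix classes of very different size, so each class is given by itself.

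**Figure D1:**
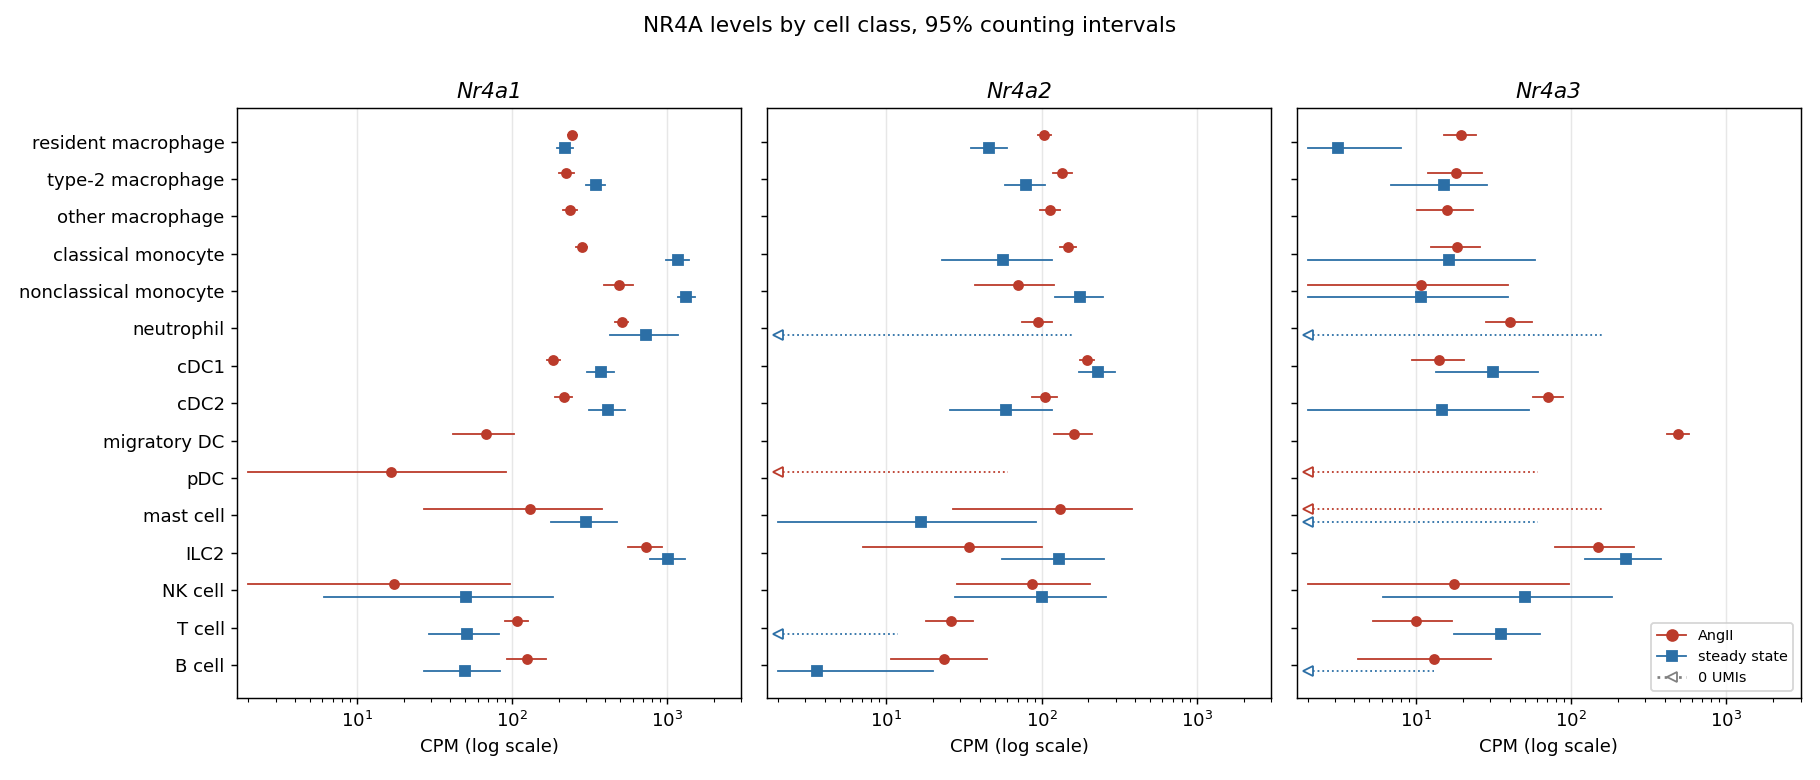
CPM of *Nr4a1*, *Nr4a2* and *Nr4a3* (log axis) in the gated classes shown, where a class holds at least 3 cells, with 95% counting intervals; open triangles mark classes with 0 UMIs and their dotted lines end at the upper limit. Among classes of at least 10 cells *Nr4a1* is highest in steady-state nonclassical monocytes at 1327 CPM and *Nr4a3* in AngII migratory dendritic cells at 489.9 CPM.

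By CPM *Nr4a1* stood highest in monocytes at steady state, although the interval of 8 type-2 innate lymphoid cells (1013 CPM, 778 to 1296) overlaps theirs. The 16 nonclassical monocytes held 247 UMIs of it, 1327 CPM (1167 to 1504), in 16 cells (100%, 79.4% to 100%). It remained in 13 of 16 thinned cells (81.2%, 54.4% to 96.0%). The 8 classical monocytes of this library held 144 UMIs (1166 CPM, 984 to 1373) in 8 cells (100%, 63.1% to 100%) and in 4 of 8 thinned cells (50.0%, 15.7% to 84.3%), although 63 of those UMIs came from 1 cell and the level without it was 921 CPM. With 8 classical cells, fewer than the 10 set as the least for such a comparison, the monocyte classes are only shown side by side at steady state.

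On AngII the 37 nonclassical monocytes held 91 *Nr4a1* UMIs, 489.9 CPM (394 to 601), in 19 cells (51.4%, 34.4% to 68.1%) and in 11 of 24 thinned cells (45.8%, 25.6% to 67.2%). The 330 classical monocytes held 508 UMIs, 281 CPM (257 to 306), in 128 cells (38.8%, 33.5% to 44.3%) and in 46 of 197 thinned cells (23.4%, 17.6% to 29.9%), with 13 and 133 cells left out by thinning. The CPM ratio of nonclassical to classical monocytes was 1.74 (1.38 to 2.18) in this library. Where scores had to lead by at least 0.3, a setting chosen after seeing the data, it was 2.88. *Nr4a1* thus stood higher in the nonclassical class by CPM, and the intervals of the full-depth shares overlap.

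Nonclassical monocytes had a lower *Nr4a1* level on AngII than at steady state, with a ratio of 0.369 (0.287 to 0.471). Their *Nr4a2* had 13 UMIs on AngII (70.0 CPM, 37.3 to 119.7) and 33 at steady state (177 CPM, 122 to 249), a ratio of 0.395 (0.191 to 0.770), and 0.190 without the top cell of each. *Nr4a3* had 2 and 2 UMIs there and gets no ratio. So 2 of the 2 tested genes were at least 2-fold lower and 0 of the 2 tested genes higher, where 6.15% of 3058 genes were lower and 6.97% higher by that much. The *Nr4a1* level of classical monocytes was 281 CPM on AngII beside 1166 CPM at steady state.

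Against the macrophages of their own library, nonclassical monocytes had an *Nr4a1* ratio of 4.93 (4.22 to 5.75) at steady state and 2.08 (1.67 to 2.57) on AngII. After thinning to 1000 UMIs the first was 10.2, and as the mean over cells the second was 1.90. *Nr4a2* did not follow the same order on AngII. There it was 70.0 CPM in nonclassical and 149 CPM (132 to 168) in classical monocytes, a ratio of 0.470 (0.247 to 0.818), and 9 of the 13 nonclassical UMIs lay in 1 cell. Without the top cells the ratio was 0.177, and 0.746 after thinning to 1000 UMIs. It was found in 4 nonclassical cells (10.8%, 3.03% to 25.4%) and 82 classical ones (24.8%, 20.3% to 29.9%), and in 2 of 24 thinned cells (8.33%, 1.03% to 27.0%) and 26 of 197 thinned cells (13.2%, 8.81% to 18.7%). *Nr4a3* was low in both, with 2 UMIs (10.8 CPM, 1.30 to 38.9) and 33 UMIs (18.2 CPM, 12.6 to 25.6), a ratio of 0.590 (0.0686 to 2.31).

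Between these monocyte classes 1 of the 3 tested genes was at least 2-fold lower in the nonclassical cells, where 12.2% of 7566 genes were, and 0 of the 3 tested genes higher, where 9.36% were. At steady state *Nr4a2* stood at 177 CPM in nonclassical cells and at 56.7 CPM (22.8 to 117) in classical ones, with 6 of 7 classical UMIs in 1 cell. It was in 7 of 16 nonclassical cells and in 2 of 16 thinned cells (12.5%, 1.55% to 38.3%). The order of the *Nr4a2* levels of the monocyte classes was thus not the same in the libraries, a difference that was not tested.

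Resident macrophages, the largest class of both libraries, had *Nr4a1* levels that cannot be told apart by counting error. On AngII 852 cells held 948 UMIs (245 CPM, 229 to 261), and at steady state 117 cells held 282 UMIs (220.3 CPM, 195 to 248), a ratio of 1.11 (0.971 to 1.27). A UMI was found in 277 of the AngII cells (32.5%, 29.4% to 35.8%) and 61 of the steady-state cells (52.1%, 42.7% to 61.5%), and in 100 of 528 thinned cells (18.9%, 15.7% to 22.5%) and 16 of 115 thinned cells (13.9%, 8.17% to 21.6%). The full-depth shares differ in the direction of the depths, and the intervals of the thinned shares overlap. When each cell was given equal weight the ratio was 0.779, and in named clusters it was 0.753, so its side of 1 was not settled. The AngII resident cluster held 264 of the 852 gated cells, with 46 of their 948 *Nr4a1* UMIs, and the steady-state one 65 of the 117 gated cells.

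*Nr4a2* in resident macrophages stood at 104 CPM (94.1 to 115) on AngII, with 403 UMIs in 168 cells, and at 46.1 CPM (35.1 to 59.5) at steady state, with 59 UMIs in 12 cells, a ratio of 2.26 (1.71 to 3.02). At steady state 21 of the UMIs came from 1 cell. Without the top cell of each library the ratio was 3.34, with thinned cells 6.97, in named clusters 4.48, and with a resident score of at least 0.5 it was 1.57. The share of cells with a UMI was higher on AngII (19.7%, 17.1% to 22.6%) than at steady state (10.3%, 5.41% to 17.2%) in spite of the shallower AngII cells, and it was found in 51 of 528 thinned cells (9.66%, 7.28% to 12.5%) and 2 of 115 thinned cells (1.74%, 0.211% to 6.14%). The ratio was above 1 in each of these settings, while its size ranged widely.

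*Nr4a3* was rare in resident macrophages, with 75 UMIs in 54 cells on AngII (19.4 CPM, 15.2 to 24.3) and 4 UMIs in 3 cells at steady state (3.13 CPM, 0.851 to 8.00). The ratio was 6.19 (2.32 to 23.3), an interval widened by the few steady-state UMIs, and 11.5 without the top cells. Its shares of cells were 6.34% (4.80% to 8.19%) on AngII and 2.56% (0.532% to 7.31%) at steady state, and it was found in 14 of 528 thinned cells (2.65%, 1.46% to 4.41%) and 0 of 115 thinned cells (0%, 0% to 3.16%). In resident macrophages 2 of the 3 tested genes were at least 2-fold higher on AngII, where 7.95% of 10269 genes were, and 0 of the 3 tested genes lower, where 8.10% were.

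The AngII class held many shallow cells, and the genes were not even across depth. In the 253 AngII resident macrophages of at least 3000 UMIs *Nr4a2* stood at 91.9 CPM (81.7 to 103) and *Nr4a3* at 11.6 CPM (8.17 to 16.0). The 599 shallower cells had 160.0 CPM (131 to 193) of *Nr4a2* and 55.3 CPM (39.1 to 75.9) of *Nr4a3*. *Nr4a1* went the other way, 255 CPM (238 to 273) in the deeper and 196 CPM (165 to 232) in the shallower cells. The 109 steady-state cells of at least that depth had 219 CPM (194 to 246) of *Nr4a1*, 46.6 CPM (35.5 to 60.1) of *Nr4a2* and 3.16 CPM (0.861 to 8.09) of *Nr4a3*. Between deep cells alone, a comparison chosen after seeing the data, the ratios were 1.17 (1.02 to 1.34) for *Nr4a1*, 1.97 (1.49 to 2.65) for *Nr4a2* and 3.67 (1.32 to 14.2) for *Nr4a3*. What set the shallow cells apart was not tested.

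**Figure D2:**
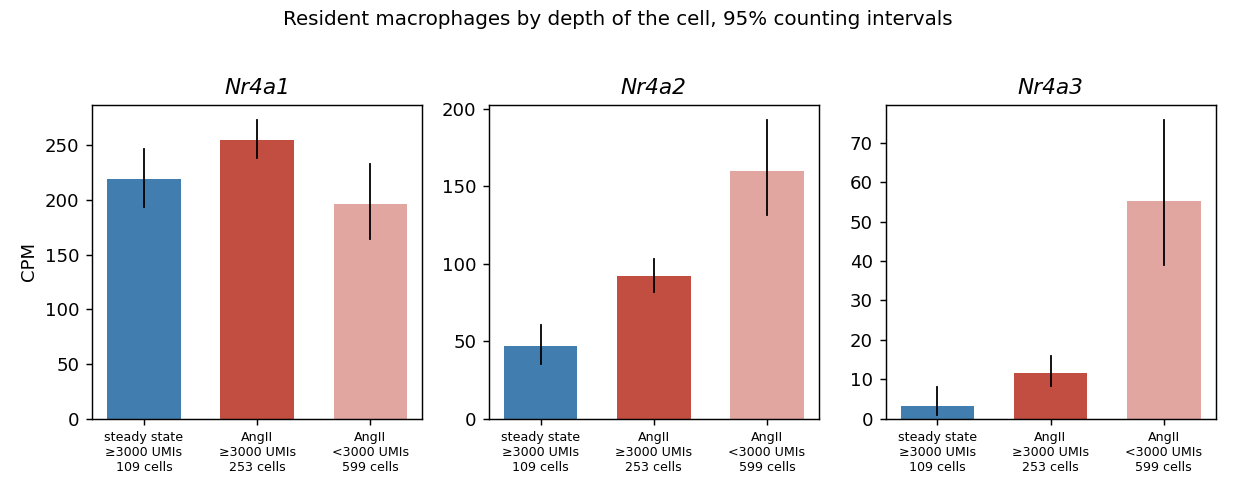
CPM of the 3 genes in resident macrophages of at least 3000 UMIs at steady state and on AngII, and in the AngII cells below that depth; bars start at 0 and lines are 95% counting intervals. *Nr4a2* is 46.6 CPM, 91.9 CPM and 160.0 CPM and *Nr4a3* 3.16 CPM, 11.6 CPM and 55.3 CPM in these groups.

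Over all macrophage classes, 2041 cells on AngII and 140 at steady state, *Nr4a1* was 235 CPM (225 to 246) and 269 CPM (246 to 294), a ratio of 0.874 (0.793 to 0.965). With thinned cells it was 1.20, from 261 and 27 UMIs. The intervals of the thinned shares, 19.6% (17.3% to 22.0%) and 14.5% (9.08% to 21.5%), overlap, so the side of 1 was not settled. *Nr4a2* was 119.8 CPM (113 to 127) and 62.7 CPM (52.0 to 75.0), a ratio of 1.91 (1.58 to 2.33). After thinning that ratio was 6.44, from 156 UMIs on AngII and 3 at steady state. *Nr4a3* was 17.0 CPM (14.4 to 20.03) and 6.85 CPM (3.65 to 11.7), a ratio of 2.49 (1.41 to 4.78), and 1.61 (0.889 to 3.16) in cells of at least 3000 UMIs, 1.72 in named clusters and 6.91 as the mean over cells. Among macrophages as a whole 1 of the 3 tested genes was at least 2-fold higher, where 7.64% of 11566 genes were.

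The macrophage classes did not share 1 pattern. The type-2 class was less sharply marked on AngII, with a median of 2 of 5 markers found against 4 at steady state. Its median own scores were 0.596 and 0.990, and its *Retnla* 9720 and 32177 CPM. Whether it held like cells in both libraries was not tested. In type-2 macrophages *Nr4a1* was 225 CPM (201 to 249.96) on AngII and 347 CPM (302 to 398) at steady state, a ratio of 0.646 (0.542 to 0.773). *Nr4a2* was 136 CPM (118 to 156) and 78.9 CPM (57.9 to 105) there, a ratio of 1.73 (1.25 to 2.43), and *Nr4a3* 18.2 CPM (11.996 to 26.5) and 15.1 CPM (6.91 to 28.7), a ratio of 1.21 (0.550 to 2.91). The steady-state *Nr4a2* level rests on 22 of 47 UMIs in 1 cell. Without the top cells its ratio was 2.96 (1.94 to 4.69). After thinning to 1000 UMIs it was 4.35, from 34 UMIs on AngII and 1 at steady state, and to 2000 UMIs 1.02. These settings were run for this ratio after seeing it. Of the family 0 of the 3 tested genes were at least 2-fold lower, where 5.14% of 7835 genes were. The 576 other macrophages of the AngII library had 238 CPM (214 to 264) of *Nr4a1*, 113 CPM (97.1 to 132) of *Nr4a2* and 15.7 CPM (10.1 to 23.4) of *Nr4a3*.

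Within the AngII macrophages, 158 cells with at least 3 interferon-response markers were set against the 1883 others, a comparison chosen after seeing the data. Their ratios were 0.802 (0.719 to 0.893) for *Nr4a1*, 0.558 (0.468 to 0.660) for *Nr4a2* and 0.981 (0.654 to 1.44) for *Nr4a3*. As the mean over cells *Nr4a1* turned to 1.06, and in named clusters *Nr4a3* was 2.22 (1.62 to 3.03). The 73 cycling macrophages had ratios of 0.651 (0.536 to 0.783), 0.520 (0.382 to 0.694) and 0.602 (0.255 to 1.22) to the other 1968, with *Nr4a2* at 0.865 (0.654 to 1.12) in clusters. Both states sat in deeper cells, with medians of 9584.5 and 3505 UMIs against 1095 in all macrophages. Macrophages of at least 3000 UMIs had 239 CPM (228 to 251) of *Nr4a1* and 108 CPM (100.2 to 116) of *Nr4a2*, and those below 219.5 CPM (198 to 243) and 169.9 CPM (151 to 191). *Nr4a3* was 11.1 CPM (8.78 to 13.9) in the deeper and 41.7 CPM (32.5 to 52.8) in the shallower macrophages. Its cycling ratio between cells of at least 3000 UMIs was 1.02. Between cells of at least 3000 UMIs the *Nr4a1* and *Nr4a2* ratios were 0.760 (0.678 to 0.850) and 0.579 (0.480 to 0.694) for the interferon state and 0.628 (0.512 to 0.762) and 0.540 (0.387 to 0.734) for cycling cells. At steady state 13 macrophages with interferon markers had 169 CPM (123 to 228) of *Nr4a2* beside 46.2 CPM (36.4 to 57.9) in the 127 others. Without the top cells these were 92.4 and 33.8 CPM. *Nr4a1* was 347 CPM (278 to 427) beside 257 CPM (233 to 283) in these groups. As the mean over cells *Nr4a1* was 279 and 275 CPM and *Nr4a2* 126 and 40.4 CPM. In thinned cells *Nr4a1* was in 5 of 13 and 15 of 125, and *Nr4a2* in 0 of 13 and 3 of 125. By summed UMIs both genes thus stood the other way from AngII. The 13 cells do not settle that order, and the difference was not tested.

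**Figure D3:**
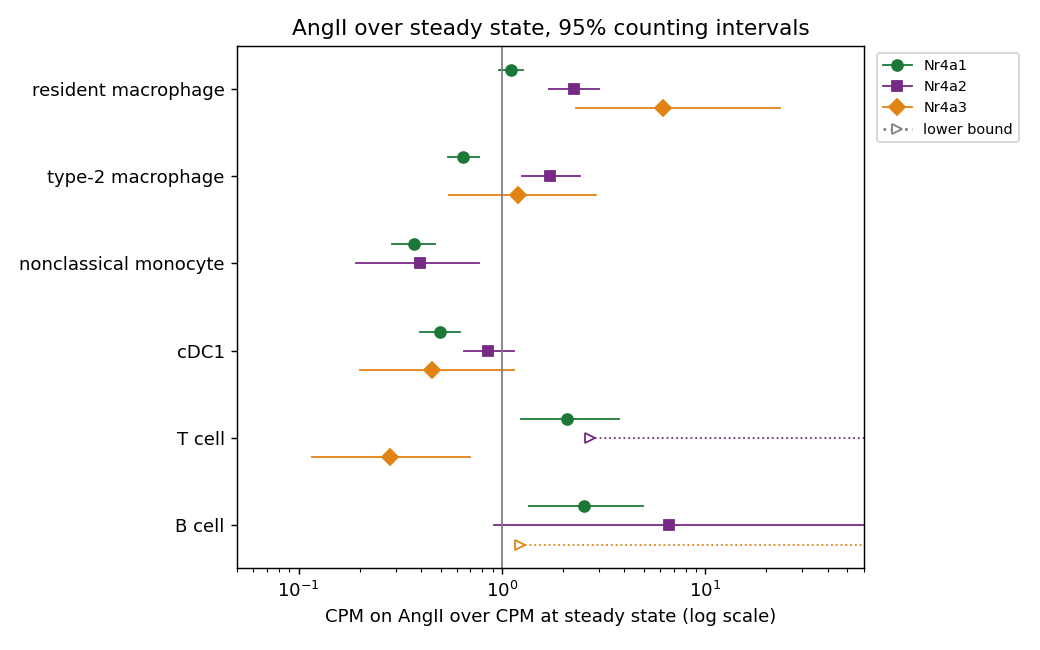
Ratio of the CPM on AngII to the CPM at steady state (log axis) of *Nr4a1*, *Nr4a2* and *Nr4a3* in 6 classes, with 95% counting intervals and open triangles for lower bounds where the steady-state class held 0 UMIs. *Nr4a1* lies below 1 in nonclassical monocytes (0.369) and cDC1 (0.494) and above 1 in T cells (2.09, and 0.829 in named clusters).

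Dendritic cells split the family. Migratory dendritic cells, gated by *Ccr7*, *Fscn1* and related genes, had 152 *Nr4a3* UMIs in 19 of 40 cells on AngII, 489.9 CPM (415 to 574), a share of 47.5% (31.5% to 63.9%), and it was found in 6 of 23 thinned cells (26.1%, 10.2% to 48.4%). They are 0.953% of the AngII cells and held 25.7% of the *Nr4a3* UMIs of the library. The single steady-state cell of this class had 6 *Nr4a3* UMIs (123 CPM, 45.3 to 269). *Nr4a3* was thus concentrated in a small class.

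Conventional dendritic cells of type 1 (cDC1, 333 cells) had 14.1 CPM (9.43 to 20.2) of *Nr4a3* and those of type 2 (cDC2, 148 cells) 71.0 CPM (56.5 to 88.2), a ratio of 0.198 (0.125 to 0.306), and 0.436 as the mean over cells. Migratory cells against cDC1 and cDC2 together had ratios of 14.2 (11.03 to 18.3) for *Nr4a3*, 0.986 (0.723 to 1.32) for *Nr4a2* from 50 UMIs in 9 cells, and 0.346 (0.213 to 0.533) for *Nr4a1* from 21 UMIs in 8 cells. As the mean over cells they were 9.77, 0.432 and 0.179, and after thinning to 1000 UMIs 8.49, 0.510 and 0.216, so *Nr4a2* was at least 2-fold lower in the first of these. In this comparison 1 of the 3 tested genes was at least 2-fold higher, where 11.3% of 9099 genes were, and 1 of the 3 tested genes lower, where 23.1% were. Of the migratory cells 21 held fewer than 3000 UMIs, and the 19 deeper ones carried 149 of the *Nr4a3* UMIs.

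*Nr4a2*, by contrast, had its highest CPM in cDC1 in both libraries among classes of at least 10 cells, with a lead within counting error. The lead was 1.22 (0.906 to 1.67) over migratory cells on AngII and 1.30 (0.833 to 2.05) over nonclassical monocytes at steady state. In AngII type-2 macrophages *Nr4a2* was in 87 cells (31.1%, 25.7% to 36.9%) and in 31 of 172 thinned cells (18.0%, 12.6% to 24.6%), much as in cDC1. On AngII it was 196 CPM (178 to 216) in 103 cDC1 (30.9%, 26.0% to 36.2%) and in 34 of 192 thinned cells (17.7%, 12.6% to 23.9%), with 105 CPM (87.0 to 125) in cDC2, a ratio of 1.87 (1.52 to 2.31), and 2.88 as the mean over cells. At steady state 12 cDC1 had 230.0 CPM (175 to 297) in 7 cells and in 3 of 12 thinned cells (25.0%, 5.49% to 57.2%), and the ratio of AngII to steady state was 0.853 (0.648 to 1.14), and 1.44 after thinning to 2000 UMIs. *Nr4a1* in cDC1 was 185 CPM (167 to 205) on AngII and 374 CPM (303 to 457) at steady state, a ratio of 0.494 (0.394 to 0.625), and *Nr4a3* had 29 and 8 UMIs, a ratio of 0.452 (0.201 to 1.14). So 2 of the 3 tested genes were at least 2-fold lower in cDC1, where 7.44% of 7912 genes were, and for *Nr4a3* the interval holds 1. At steady state 26 of 96 *Nr4a1* and 4 of 8 *Nr4a3* UMIs lay in 1 cell, and without the top cells the ratios were 0.586 (0.452 to 0.769) and 0.693 (0.239 to 2.74), so that 0 genes were at least 2-fold lower. In clusters they were 0.522 and 0.549, settings run for cDC1 after seeing the ratios.

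T and B cells had low *Nr4a1* levels, and type-2 innate lymphoid cells (ILC2) high ones. The 12 ILC2 on AngII held 64 *Nr4a1* UMIs, 730.1 CPM (562 to 932), in 12 cells and in 8 of 10 thinned cells (80.0%, 44.4% to 97.5%). The 8 at steady state held 63 UMIs, 1013 CPM (778 to 1296), in 7 cells and in 7 of 8 thinned cells (87.5%, 47.3% to 99.7%), so that the few cells do not set the libraries apart. *Nr4a3* was 148 CPM (79.0 to 254) and 225 CPM (123 to 378) in these cells, with 9 of 13 and 10 of 14 UMIs in 1 cell, and *Nr4a2* 3 and 8 UMIs. The *Nr4a1* ratio of ILC2 to T cells was 6.82 (4.99 to 9.23) on AngII, and 13.1 after thinning to 1000 UMIs.

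T cells had 107 CPM (90.1 to 126) of *Nr4a1* on AngII, with 140 UMIs in 45 of 280 cells, and 51.2 CPM (29.2 to 83.1) at steady state, with 16 UMIs in 11 of 37 cells, a ratio of 2.09 (1.24 to 3.76). It was in 12 of 155 thinned cells (7.74%, 4.06% to 13.1%) and 2 of 37 thinned cells (5.41%, 0.661% to 18.2%), whose intervals overlap. As the mean over cells the ratio was 1.94 and after thinning to 1000 UMIs 1.55 (0.351 to 14.2), both under 2. *Nr4a2* had 34 UMIs (26.0 CPM, 18.0 to 36.3) on AngII and 0 at steady state, where the exact upper limit is 11.8 CPM. Over a floor of 3 UMIs for the steady-state class (9.59 CPM) it was at least 2.71-fold higher, or 2.09 as the lower limit of the ratio conditional on the summed count. It was found in 3 of 155 thinned cells (1.94%, 0.401% to 5.55%) and 0 of 37 thinned cells (0%, 0% to 9.49%). With cells thinned to 1000 UMIs the bound was 0.398, from 5 and 0 UMIs, which gives no direction. *Nr4a3* had 13 UMIs (9.94 CPM, 5.29 to 17.0) on AngII and 11 in 3 cells (35.2 CPM, 17.6 to 62.9) at steady state, a ratio of 0.283 (0.117 to 0.697). Without the top cells it was 0.433 (0.147 to 1.43) and as the mean over cells 0.544, and it was found in 2 of 155 thinned cells (1.29%, 0.157% to 4.58%) and 0 of 37 thinned cells (0%, 0% to 9.49%).

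By count, 2 of the 3 tested genes were at least 2-fold higher in AngII T cells, where 23.3% of 7731 genes were, and 1 of the 3 tested genes lower, where 6.79% were. The *Nr4a2* call did not hold after thinning to 1000 UMIs, where its bound was 0.398. In clusters in place of gates the T cell ratio of *Nr4a1* was 0.829, and there the steady-state T cluster of 49 cells held 7 cells gated as ILC2 with 61 of its 79 *Nr4a1* UMIs. The cluster ratio of *Nr4a2* was 1.17 (0.666 to 2.16), where 8 of the 16 steady-state UMIs lay in cells gated as ILC2, 4 in natural killer, 2 in migratory dendritic and 2 in mixed cells, and 0 in T cells. B cells had 125 CPM (92.5 to 166) of *Nr4a1* in 24 of 101 cells on AngII and 49.8 CPM (27.2 to 83.5) in 9 of 49 cells at steady state, with 11 of 62 thinned cells (17.7%, 9.20% to 29.5%) and 3 of 48 thinned cells (6.25%, 1.31% to 17.2%), a ratio of 2.52 (1.37 to 4.95), and 4.15 after thinning to 2000 UMIs. *Nr4a2* had 9 UMIs against 1 in B cells, a ratio of 6.61 (0.916 to 289.8), and *Nr4a3* 5 against 0. With fewer than 20 UMIs these do not enter the count, so 1 of the 1 tested gene (*Nr4a1*) was at least 2-fold higher, where 5.11% of 4383 genes were.

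Markers of other classes were found in the lymphocytes as well. The 8 macrophage markers summed to 463 CPM in T cells on AngII and 28.8 CPM at steady state, neutrophil markers to 258 CPM and 6.40 CPM, and classical monocyte markers to 402 CPM and 515 CPM. In B cells macrophage markers were at 337 CPM and 85.4 CPM and classical monocyte markers at 1231 CPM and 462 CPM. Thus macrophage and neutrophil markers were higher in AngII T cells, and classical monocyte markers lower. On AngII the macrophage sum in T cells was 3.11% of that in resident macrophages, a share at which their RNA would bring 7.62 of the 107 CPM of *Nr4a1* and 3.24 of the 26.0 CPM of *Nr4a2*. At the share of the classical monocyte sum (6.58%) monocyte RNA would bring 18.5 and 9.78 CPM. In AngII B cells that share was 20.1% and would bring 56.5 of the 125 CPM of *Nr4a1* and 29.9 CPM of *Nr4a2*, more than the 23.5 CPM seen. Most of the monocyte marker UMIs in AngII B cells were of *Plac8*. At steady state the same reckoning would bring 115 CPM of *Nr4a1* into T cells and 103 CPM into B cells, more than the 51.2 CPM and 49.8 CPM seen. A reckoning that brings more than is seen cannot be read as an amount. The monocyte marker sums therefore do not measure monocyte RNA in T or B cells. The monocyte level in that reckoning comes from 8 cells, with 63 of 144 *Nr4a1* UMIs in 1 of them. How much of the lymphocyte difference is RNA from other cells was not tested beyond these values.

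Among classes of at least 10 cells neutrophils had the second highest *Nr4a1* level on AngII, although their interval and that of nonclassical monocytes overlap. Their 337 cells held 443 UMIs, 509.5 CPM (463 to 559), in 137 cells (40.7%, 35.4% to 46.1%) and in 64 of 202 thinned cells (31.7%, 25.3% to 38.6%), a ratio to the macrophages of that library of 2.16 (1.95 to 2.40). *Nr4a3* was 40.3 CPM (28.0 to 56.0) in them, a ratio of 2.36 (1.59 to 3.44), and *Nr4a2* 94.3 CPM (75.0 to 117), a ratio of 0.787 (0.621 to 0.987). Here 2 of the 3 tested genes were at least 2-fold higher, where 9.92% of 11305 genes were. As the mean over cells the ratios were 1.92 for *Nr4a1*, 1.496 for *Nr4a3* and 0.495 for *Nr4a2*, so that 0 genes were at least 2-fold higher. *Nr4a1* was also under 2 in named clusters (1.93). The 4 steady-state neutrophils had 17 *Nr4a1* UMIs (733 CPM, 427 to 1173), 0 of *Nr4a2* and 0 of *Nr4a3*. Mast cells, 16 on AngII and 9 at steady state, had 3 and 18 *Nr4a1* UMIs (131 CPM, 27.0 to 383, and 299 CPM, 177 to 473). The 3 eosinophils on AngII held 6 (1807 CPM, 663 to 3932), too few cells to rank.

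No class is known to lack NR4A genes, so the lowest levels serve as the guide to free RNA, RNA released by broken cells that enters every droplet. On AngII *Nr4a1* had 1 UMI in 12 plasmacytoid dendritic cells (16.5 CPM, 0.418 to 92.0; median depth 1490 UMIs), 1 in 12 natural killer cells (17.4 CPM, 0.442 to 97.2; median 4930.5 UMIs) and 0 in 2 plasma cells (exact upper limit 65.9 CPM). A UMI was thus found in 8.33% (0.211% to 38.5%) of the first and in 0 of 7 thinned cells (0%, 0% to 41.0%), beside 51.4% of nonclassical monocytes at a median of 1506 UMIs and 11 of 24 thinned cells (45.8%, 25.6% to 67.2%). The proportions of the 3 genes were much alike in B cells and neutrophils and were others in cDC1 and migratory cells. The counts of *Nr4a1*, *Nr4a2* and *Nr4a3* were 48, 9 and 5 in B cells and 443, 82 and 35 in neutrophils. In cDC1 they were 381, 404 and 29, and in migratory cells 21, 50 and 152. How much of any count is free RNA was not tested.

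Ordered by CPM on AngII, among the reported classes of at least 10 cells, *Nr4a1* ran from ILC2 to neutrophils, nonclassical monocytes, classical monocytes, resident, other and type-2 macrophages, cDC2, cDC1, mast cells, B cells, T cells, migratory dendritic cells, natural killer cells and plasmacytoid cells. Its neighbouring pairs were apart by their counting interval in 3 of 14 cases, namely ILC2 over neutrophils, nonclassical over classical monocytes, and classical monocytes over resident macrophages. For *Nr4a2* 0 of 14 neighbouring pairs were apart on AngII, along an order from cDC1, migratory cells and classical monocytes to T cells, B cells and plasmacytoid cells. For *Nr4a3* 4 of 14 were apart, the steps from migratory cells to ILC2, to cDC2, to neutrophils and to resident macrophages, below which neighbours cannot be told apart. The place of ILC2 rests on 9 of 13 UMIs in 1 cell. Without the top cells ILC2 stood at 50.6 CPM, below cDC2 at 66.1 CPM.

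At steady state, among 6 classes of at least 10 cells, *Nr4a1* ran from nonclassical monocytes to cDC1, type-2 and resident macrophages, T cells and B cells, and 3 of 5 neighbouring pairs were apart, all but cDC1 over type-2 macrophages and T cells over B cells. *Nr4a2* ran from cDC1 to nonclassical monocytes, type-2 and resident macrophages, B cells and T cells, with 3 of 5 pairs apart, all but the first and the last. For *Nr4a3*, from T cells and cDC1 down to B cells, 0 of 5 neighbouring pairs were apart. Further apart in the order, T cells at 35.2 CPM (17.6 to 62.9) and cDC1 at 31.2 CPM (13.5 to 61.5) stood above resident macrophages at 3.13 CPM (0.851 to 8.00), with 5 of 11 T cell UMIs and 4 of 8 cDC1 UMIs in 1 cell.

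Resident macrophages were split by whether Yfp RNA was found in a cell. On AngII 213 cells had Yfp RNA and 639 had none, with median depths of 7406 and 1082 UMIs, so that the call itself depends on depth. A shallow cell can carry the reporter with no Yfp UMI counted, so the Yfp-negative class is not a lineage as such. *Nr4a1* was 234 CPM (214 to 255) in Yfp-positive and 259 CPM (235 to 285) in Yfp-negative cells, a ratio of 0.903 (0.793 to 1.03). *Nr4a2* was 75.7 CPM (64.7 to 88.1) and 142 CPM (125 to 162), a ratio of 0.532 (0.434 to 0.651), and *Nr4a3* 8.07 CPM (4.78 to 12.7) and 34.7 CPM (26.3 to 44.9), a ratio of 0.233 (0.129 to 0.401). The genes that were lower in deep cells were thus also lower in the deeper, Yfp-positive cells. Here 1 of the 3 tested genes was at least 2-fold lower, where 1.31% of 9509 genes were.

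Thinning after the call left *Nr4a2* at a ratio of 0.745 (0.411 to 1.30) and *Nr4a3* at 0.110 (0.00263 to 0.710) between these classes. Such thinning does not change the Yfp call, which was made at full depth. *Nr4a1* was in 30 of 191 thinned cells (15.7%, 10.9% to 21.7%) of the Yfp-positive and 70 of 337 thinned cells (20.8%, 16.6% to 25.5%) of the Yfp-negative class. At steady state the 89 Yfp-positive cells (median 10905 UMIs) held 59 *Nr4a2* UMIs and the 28 Yfp-negative cells (median 5184 UMIs) held 0. Over a floor of 3 UMIs for the latter class this is at least 2.87-fold higher in the former, or 2.27 as the lower limit of the ratio conditional on the summed count. Of the 59 UMIs 21 came from 1 cell, and without the top cells the bound was 1.71, in named clusters 1.10. After thinning to 2000 UMIs it was 0.689, from 8 and 0 UMIs, which gives no direction. *Nr4a2* was in 2 of 89 thinned Yfp-positive cells (2.25%, 0.273% to 7.88%) and 0 of 26 thinned Yfp-negative cells (0%, 0% to 13.2%). Over all steady-state macrophages its ratio was 1.32 (0.796 to 2.32). *Nr4a1* was 210.4 CPM (184 to 239) and 288 CPM (212 to 383) there, a ratio of 0.731 (0.532 to 1.02). By summed UMIs at full depth *Nr4a2* in resident macrophages thus stood in opposite order in the libraries, while the intervals of the thinned steady-state shares overlap. Neither that difference nor the part of depth in it was tested.

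A few cells carried much of the signal. On AngII 171 of 1242 cells with *Nr4a1*, 113 of 804 with *Nr4a2* and 43 of 289 with *Nr4a3* held 50% of the UMIs of the gene, and at steady state 29 of 161, 11 of 55 and 7 of 27. The highest steady-state cell for *Nr4a2* was a type-2 macrophage with 22 UMIs, 46.8% of the UMIs of its class. The members also met in the same cells, since on AngII 451 cells had *Nr4a1* and *Nr4a2*, 98 had all 3 and 2507 had none. After thinning, *Nr4a1* was found in 27.9% of the cells with *Nr4a2* and in 18.8% of those without. These shares pool classes, and they were 25.7% and 18.7% in all macrophages and 35.3% and 14.6% in cDC1. The order was the other way in cDC2 (0% and 12.8%), T cells (0% and 7.89%) and B cells (0% and 18.3%), with 7, 3 and 2 thinned cells holding *Nr4a2*. In all macrophages *Nr4a1* was in 16.7% of the thinned cells with *Nr4a3* and 19.6% of those without.

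Doublets, droplets with 2 cells, were looked for with Scrublet, which called 0 AngII and 5 steady-state cells, and no cell was removed for it. Mixed cells, which hold markers of several classes as doublets do, were kept out of every class. On AngII they had 300.3 CPM (266 to 338) of *Nr4a1*, 205 CPM (177 to 237) of *Nr4a2* and 87.3 CPM (69.3 to 109) of *Nr4a3*, the last with 27 of 80 UMIs in 1 cell.

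Genes whose pattern was most like each member were sought among 8450 genes over the 15 groups of class and library with at least 30 cells, by Pearson correlation of log2(CPM + 10). For *Nr4a1* these were *Nfam1* (0.97), *Igsf6* (0.95), *Cebpd* (0.95), *Cd300a* (0.95) and *Gm43775* (0.94). *Nr4a2* was most like *Atox1* (0.95), *Arpc4* (0.95), *Arpc2* (0.94), *Arhgdia* (0.94) and *Ucp2* (0.94). For *Nr4a3* they were *Traf1* (0.93), *Vopp1* (0.90), *Mtmr14* (0.89), *Pcgf5* (0.88) and *Pde4dip* (0.88), each highest in AngII migratory cells. Among themselves *Nr4a1* and *Nr4a2* had a correlation of 0.63, *Nr4a2* and *Nr4a3* 0.34 and *Nr4a1* and *Nr4a3* -0.16. The groups share 2 libraries and differ in depth, so these values are descriptions only.

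The start regions of the 3 genes are shown because cyclic AMP response elements (CRE) before the start are a known route of NR4A induction. Sequences are from RefSeq on GRCm38.p6, matched for 3 of 3 genes, and the motifs were searched on both strands in the 250 bases before the start of each of 32841 promoters. The CRE half-site, TGACG or CGTCA, began 4 times in each of the 3 genes, while 17.8% of promoters held at least 1 and 0.137% at least 4. Of the 6581 promoters with a GC content of at least 63.6%, the lowest of the members, 25 held 4 or more (0.380%). The full element TGACGTCA, which contains the half-site on both strands and is held by 1.55% of promoters, was not in any of the 3 windows. The NR4A monomer site AAAGGTCA, in 1.34% of promoters on either strand, was also not found. The EGR site GCGTGGGCG, in 0.536%, was not found either. The TATA box TATAAA, in 12.4%, occurred once, on the other strand (as TTTATA) 164 bases before the start of *Nr4a2*. Each sequence is written in the direction of transcription, and capitals mark CRE half-sites. *Nr4a1* is chr15:101266596-101266845 on the plus strand and *Nr4a2* chr2:57124004-57124253 on the minus strand. The windows end at RefSeq starts, and that of *Nr4a1* lies inside the gene as annotated above, which begins at 101254269. *Nr4a3* is chr4:48045055-48045152 on the plus strand, shortened to the 98 bases before the first annotated exon, with 3 of its half-sites. Its full window runs to 48045304, past the annotated start at 48045153, and the remaining half-site lies in that part. A match of letters is a description and shows no binding.
Nr4a1: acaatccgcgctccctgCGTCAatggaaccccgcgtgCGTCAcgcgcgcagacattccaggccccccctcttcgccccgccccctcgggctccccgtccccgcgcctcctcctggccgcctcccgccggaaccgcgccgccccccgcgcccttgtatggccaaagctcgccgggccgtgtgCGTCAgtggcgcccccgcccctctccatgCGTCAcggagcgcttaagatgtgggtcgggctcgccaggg
Nr4a2: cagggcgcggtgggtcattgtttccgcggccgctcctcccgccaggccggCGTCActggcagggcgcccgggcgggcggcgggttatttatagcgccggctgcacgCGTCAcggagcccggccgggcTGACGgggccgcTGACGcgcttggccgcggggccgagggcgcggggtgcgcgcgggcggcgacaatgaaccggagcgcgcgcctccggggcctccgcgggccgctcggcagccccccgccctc
Nr4a3: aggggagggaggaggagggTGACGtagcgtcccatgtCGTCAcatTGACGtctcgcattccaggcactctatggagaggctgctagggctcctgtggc

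The other immediate early genes give the setting of these values. In resident macrophages the list summed to 16101 CPM on AngII and 26024 CPM at steady state, with a median log2 ratio of -0.64 against -0.01 over all genes, 1 of 24 tested genes at least 2-fold higher and 5 lower, beside 7.95% and 8.10% of all genes. The highest ratios were *Rgs1* at 3.48 (2.44 to 5.10), *Rgs2* at 1.85 (1.58 to 2.17) and *Dusp2* at 1.66 (1.12 to 2.55). The lowest were *Jun* at 0.309 (0.294 to 0.326), *Atf3* at 0.286 (0.266 to 0.308) and *Egr3* at 0.276 (0.234 to 0.326). *Nr4a2* and *Nr4a3* thus stood higher on AngII in a class where the summed level of other immediate early genes stood lower.

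Upstream factors, regulators of NR4A genes such as CREB, MEF2 and Krüppel-like factors, had 0 of 16 tested genes at least 2-fold higher and 2 lower in these macrophages, beside 7.95% and 8.10% of all genes for this and the following lists, with a median log2 ratio of -0.08 against -0.01 over all genes. Their extremes were *Hdac7* at 1.98 (0.929 to 4.85), *Srf* at 1.60 (0.894 to 3.09) and *Crtc3* at 1.39 (1.013 to 1.94), and *Klf2* at 0.534 (0.502 to 0.568), *Mef2c* at 0.401 (0.364 to 0.441) and *Klf4* at 0.329 (0.309 to 0.350). The dimer partners, retinoid X receptors that pair with *Nr4a1* and *Nr4a2* products, had 0 of 2 tested genes at least 2-fold higher and 0 lower, *Rxra* at 1.02 (0.706 to 1.49) and *Rxrb* at 0.956 (0.656 to 1.42). The NF-kB and cytokine genes had 3 of 11 tested genes at least 2-fold higher and 0 lower, with a median log2 ratio of -0.25 against -0.01 over all genes, from *Il1b* at 9.47 (7.53 to 12.1), *Cx3cr1* at 2.79 (2.29 to 3.44) and *Cxcr4* at 2.53 (1.91 to 3.39) to *Il10* at 0.593 (0.414 to 0.859), *Ccl2* at 0.568 (0.539 to 0.598) and *Tnf* at 0.533 (0.433 to 0.658).

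Heat shock genes, which rise when tissue is taken apart, summed to 2360.1 CPM on AngII and 2169.5 CPM at steady state in resident macrophages, with 0 of 10 tested genes at least 2-fold higher and 4 lower, beside 7.95% and 8.10% of all genes, and a median log2 ratio of -0.25 against -0.01 over all genes. Highest were *Hsph1* at 1.84 (1.19 to 2.98), *Hspe1* at 1.75 (1.48 to 2.08) and *Hspa8* at 1.28 (1.21 to 1.36) and lowest *Dnajb1* at 0.385 (0.303 to 0.489), *Hspa1a* at 0.338 (0.273 to 0.418) and *Hspb1* at 0.227 (0.0953 to 0.521). Immediate early genes respond to tissue digestion, NR4A genes among them, and how much of any NR4A level arose after the aorta was removed was not tested.

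In nonclassical monocytes, where *Nr4a1* and *Nr4a2* stood lower on AngII, the other immediate early genes summed to 12009.8 CPM on AngII and 15945 CPM at steady state, with 2 of 21 tested genes at least 2-fold higher and 3 lower, beside 6.97% and 6.15% of all genes, and a median log2 ratio of -0.44 against -0.04 over all genes. Highest were *Ier3* at 32.1 (5.35 to 1305), *Rgs1* at 2.50 (1.16 to 5.84) and *Rgs2* at 0.992 (0.746 to 1.32), and lowest *Jun* at 0.454 (0.317 to 0.643), *Dusp2* at 0.355 (0.222 to 0.553) and *Atf3* at 0.354 (0.224 to 0.547). Against classical monocytes on AngII the upstream factors had 4 of 15 tested genes at least 2-fold higher and 1 lower, beside 9.36% and 12.2% of all genes, with a median log2 ratio of 0.28 against 0.02 over all genes. Highest were *Klf2* at 3.72 (3.22 to 4.29), *Hdac7* at 2.96 (1.07 to 7.13) and *Mef2c* at 2.40 (1.75 to 3.24), and lowest *Crtc3* at 0.689 (0.379 to 1.16), *Srf* at 0.512 (0.0123 to 3.22) and *Prkacb* at 0.344 (0.0695 to 1.04). *Nr4a1* thus stood higher in the monocyte class with more *Klf2* and *Mef2c*, and a link was not tested.

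In AngII neutrophils and ILC2, where *Nr4a1* was high, the summed level of the other immediate early genes was also high. In neutrophils they summed to 31291 CPM beside 14948 CPM in the macrophages of the AngII library, with 14 of 24 tested genes at least 2-fold higher and 0 lower, beside 9.92% and 16.7% of all genes, and a median log2 ratio of 1.10 against -0.11 over all genes. The extremes were *Egr3* at 3.97 (3.27 to 4.80), *Nfkbia* at 3.85 (3.64 to 4.07) and *Maff* at 3.61 (2.41 to 5.31), and *Fosb* at 0.951 (0.863 to 1.05), *Atf3* at 0.944 (0.832 to 1.07) and *Rgs1* at 0.507 (0.401 to 0.634). In the 12 ILC2 on AngII they summed to 25416 CPM beside 4419 CPM in T cells, with 19 of 23 tested genes at least 2-fold higher and 2 lower, beside 16.1% and 15.7% of all genes, and a median log2 ratio of 2.08 against 0.04 over all genes. Nonclassical monocytes, where *Nr4a1* was also high, went the other way against the macrophages of their library. Their sum was 12009.8 CPM beside 14948 CPM on AngII, with 1 of 24 tested genes at least 2-fold higher and 8 lower, beside 22.3% and 10.9% of all genes. At steady state it was 15945 CPM beside 25060 CPM, with 2 of 23 tested genes higher and 9 lower, beside 10.9% and 19.6% of all genes. Whether *Nr4a1* and these genes are high in the same cells was not tested.

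Migratory dendritic cells, where *Nr4a3* was high and *Nr4a1* low, differed from cDC1 and cDC2 in the other immediate early genes in both directions, with 5 of 24 tested genes at least 2-fold higher and 10 lower, beside 11.3% and 23.1% of all genes, and a median log2 ratio of -0.32 against -0.21 over all genes. Highest were *Rgs1* at 11.2 (9.62 to 13.0), *Dusp2* at 7.54 (5.76 to 9.84) and *Nfkbia* at 4.26 (3.82 to 4.73) and lowest *Fos* at 0.293 (0.249 to 0.342), *Egr3* at 0.229 (0.0834 to 0.506) and *Atf3* at 0.212 (0.112 to 0.365). The upstream factors had 3 of 15 tested genes at least 2-fold higher and 2 lower, beside the same shares of all genes, with *Crem* at 3.33 (2.07 to 5.19), *Srf* at 2.59 (1.10 to 5.48) and *Mef2a* at 2.13 (1.63 to 2.75) highest and *Klf2* at 0.509 (0.348 to 0.722), *Mef2c* at 0.252 (0.108 to 0.502) and *Klf4* at 0.230 (0.114 to 0.415) lowest.

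In T cells, genes linked to NR4A activity in exhausted and regulatory T cells were compared as well. They summed to 885 CPM on AngII and 249 CPM at steady state, with 5 of 7 tested genes at least 2-fold higher and 0 lower, beside 23.3% and 6.79% of all genes, and a median log2 ratio of 1.44 against 0.30 over all genes. *Ikzf2* held 505 CPM of the AngII sum. Among tested genes with UMIs in both libraries the highest ratios were *Ikzf2* at 8.77 (5.50 to 14.9) and *Pdcd1* at 6.58 (1.74 to 55.7) and the lowest *Tox* at 1.61 (1.011 to 2.67) and *Bcl2l11* at 0.753 (0.483 to 1.21). *Tox2* and *Foxp3*, with 0 UMIs at steady state, were at least 2.87 and 2.71-fold higher over the floor of 3 UMIs and cannot be ranked. The lower limits of their ratios conditional on the summed count were 2.22 and 2.09. The other immediate early genes were 4419 CPM and 5196 CPM there, with 6 of 23 tested genes at least 2-fold higher and 2 lower, beside the same 23.3% and 6.79% of all genes. Whether the T cells with NR4A UMIs hold these genes was not tested.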

How the data were processed

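The values are UMI counts per gene and cell barcode that the authors deposited as 1 matrix per library. By the submitters' notes reads were demultiplexed with bcl2fastq and counted with Cell Ranger 3.1.0 against GRCm38.p6 with GENCODE M24. The study clustered all 346 and 4419 deposited barcodes, and its stated filter of 300 to 6500 genes and at most 5% mitochondrial counts, used here, leaves 306 and 4198. Members and lists were chosen with earlier results of these data known.

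For gating, each marker was valued as log(1 + UMIs per 10000) divided by its mean over cells that hold it, capped at 2, and a class scored the mean over its markers. A cell needed at least 2 markers of a class and a lead of 0.05 over the next, the macrophage lists counting as 1 lineage, whose subtypes needed a score of at least 0.2. One macrophage subtype entered the values over all macrophages and the correlations and is not reported by itself. CPM intervals are exact Poisson, shares Clopper-Pearson, and ratios conditional on the summed count. A count of 0 over a class was set to 3 counts, and a fold against it is written as at least that value, without the counting error of the other class. Ratios entered counts of genes from 20 UMIs in both groups together.

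Named genes are the members, the 3 highest and 3 lowest ratios of a list (NR4A dimer partners, upstream factors, other immediate early genes, heat shock genes, genes linked to NR4A activity in T cells, NF-kB and cytokine genes) among genes with at least 20 UMIs, and the 5 genes most like each member. Gene coordinates are from GENCODE M21. The code was tested on simulated data. Python 3.11.15 was used with numpy 2.4.6, scipy 1.17.1, pandas 2.3.3, matplotlib 3.10.9, scanpy 1.11.5 (with Scrublet), igraph 0.11.9 and leidenalg 0.10.2.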

Additional observations from a re-analysis of the deposited data

Results flagged for a closer look

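Genes whose ratio of AngII to steady state lay above 1 in some classes and below 1 in others, each with an interval that leaves out 1 and at least 10 cells in both libraries, were marked. For *Nr4a1* these were 2.09 in T cells, 2.52 in B cells, 0.646 in type-2 macrophages, 0.369 in nonclassical monocytes and 0.494 in cDC1. *Nr4a2* had 2.26 in resident macrophages, 1.73 in type-2 macrophages, at least 2.71 in T cells and 0.395 in nonclassical monocytes, and *Nr4a3* 6.19 in resident macrophages and 0.283 in T cells. Between Yfp-positive and Yfp-negative resident macrophages *Nr4a2* stood at 0.532 on AngII and at least 2.87 at steady state, on opposite sides of 1 at full depth. After thinning to 2000 UMIs the steady-state bound was 0.689, and the T cell bound of *Nr4a2* was 0.398 after thinning to 1000 UMIs, so that these give no direction. The difference was not tested in any of these.

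Barcodes that the filter left out were looked at because they enter only the alternative with all deposited barcodes. On AngII 221 of them held 269 CPM of *Nr4a1*, 146 CPM of *Nr4a2* and 52.6 CPM of *Nr4a3*, and at steady state 40 held 384, 163 and 74.6 CPM. The difference from the kept cells was not tested.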

How the results depend on the processing

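Of 462 alternative values of 49 ratios, 392 stayed within the interval of the first, 67 moved out of it and 3 turned the direction of a ratio whose interval leaves out 1. For the 12 main ratios this was 99, 20 and 1 of 120. On the same side of 1 lay 428 of the 462 and 113 of the 120 main ones, so most of those on the other side belong to ratios whose own interval holds 1. Values set against 0 UMIs are not in this tally. Of 372 alternative values of 48 gene list counts, 293 stayed the same and 79 moved. Thinned to 1000 UMIs, *Nr4a1* in all macrophages was 1.20, on the other side of 1, from 261 and 27 UMIs. *Nr4a1* of nonclassical over classical monocytes was 2.28 at this depth. *Nr4a2* was 6.44 in all macrophages (156 and 3 UMIs) and 6.97 in resident ones (64 and 2 UMIs). Between Yfp-positive and Yfp-negative cells *Nr4a2* was 0.745 and *Nr4a3* 0.110. Thinned to 2000 UMIs, *Nr4a2* was 2.39 in all and 3.96 in resident macrophages and *Nr4a3* 5.15 in all macrophages. As the mean over cells, *Nr4a1* was 0.779 in resident macrophages, *Nr4a2* 3.22 in all and 3.38 in resident macrophages and *Nr4a3* 6.91 in all macrophages, and *Nr4a1* turned to 1.06 between macrophages with interferon markers and the others. In named clusters *Nr4a1* was 0.750 in all macrophages, 0.753 in resident macrophages and 0.706 between Yfp-positive and Yfp-negative cells. It turned to 0.829 in T cells, and *Nr4a2* was 4.48 in resident macrophages. Without the top cells *Nr4a2* was 3.34 in resident macrophages and 0.177 between monocyte classes. Chosen after seeing the data, a resident score of at least 0.5 gave *Nr4a2* 1.57 and a lead of at least 0.3 gave *Nr4a1* 2.88 between monocyte classes. Of the CPM values by class, 32 of 72 stayed inside their interval after thinning to 1000 UMIs, 34 of 72 after thinning to 2000 UMIs and 39 of 54 in clusters, and of the shares 42 of 72 did so after thinning to 500 UMIs. The cause was not tested. No clusters of nonclassical monocytes formed on AngII, so that alternative has no value, and the steady-state monocyte ratio has none for want of cells. No paired analysis was possible because the libraries hold different animals.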
